A study of Pinus pinaster with 24 samples.

Results

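The ammonium response of the root cap was measured in 6 of the 24 libraries of this series, 3 from seedlings given ammonium and 3 from seedlings given water, over all 47118 transcripts that the deposited table lists. The libraries were chosen by their labels alone. All seedlings were maritime pine (Pinus pinaster) from seeds of Sierra Segura y Alcaraz in Spain, 1 month old, and had first received a nutrient solution without nitrogen. The ammonium group then received 80 mL of 3 mM NH4Cl and the water group 80 mL of water, and root tips were taken 24 h later. The salt brought chloride as well as ammonium, so these cannot be told apart. The root cap was cut by laser from 30 µm frozen sections, its outline only approximately matching the tissue, and its small RNA yield was amplified by SMART-Seq before sequencing. The labels number the experiments 1, 3 and 4, and give neither the number of seedlings behind a library nor whether different plants were grown for each experiment. The p-values therefore cover only how far these libraries varied, part of which may be technical.

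The root cap is the sheath of cells over the growing tip of a root. It protects the meristem, releases mucilage and border cells, senses gravity and is the first tissue to meet the soil solution. Ammonium enters root cells largely through AMT transporters and is built into glutamine by glutamine synthetase, and conifers are known to use it readily as a nitrogen source. The table pairs 0 of its identifiers with a gene name, so no transcript below is given a role and neither ammonium transport nor assimilation could be examined by gene.

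The root cap libraries were deep and, taken over all transcripts, alike. Recovered reads came to about 68912000, 68326000 and 79064000 in the ammonium libraries of experiments 1, 3 and 4, against 76629000, 75449000 and 88269000 in the water libraries. Each library correlated with the 5 others at a median r between 0.929 and 0.938 across transcripts, and none stood apart by this measure. Ammonium 3 had the most transcripts at 0, 1387 against 685 to 1136 in the others. It was lowest on the meristem, vessel and root cap lists given below, but not on the cortex list. The root mean square SD within a group was 0.46 on the log2 scale with ammonium and 0.47 with water. A transcript at 3 reads, used here as the floor, had a value of 0.0383 to 0.0487 with ammonium and 0.0327 to 0.0431 with water. Values below are the deposited ones, reads divided by a scaled library size, and compare a transcript between libraries and not transcripts of different length.

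Most root cap transcripts differed little between treatments. The log2 difference, ammonium minus water on the log2(value + 1) scale, lay within 0.5 of 0 for 85.7% of the 46960 transcripts tested and was at least 1 in size for 2.47% of them. Of these, 712 were higher and 450 lower with ammonium. Its median was -0.01, and the 95% interval of a single difference had a median half-width of 0.64. By limma over all 24 libraries as 8 groups, 3 transcripts passed a Benjamini-Hochberg adjusted p of 0.05, which is 0.00639% of those tested. All 3 were higher with ammonium. At an unadjusted p under 0.05 there were 859 higher (1.83%) and 741 lower (1.58%), together 3.41% of those tested. Counted without a test, 2834 transcripts (6.03%) had all 3 ammonium libraries above all 3 water libraries, and 3123 (6.65%) had all 3 below.

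**Figure D1:**
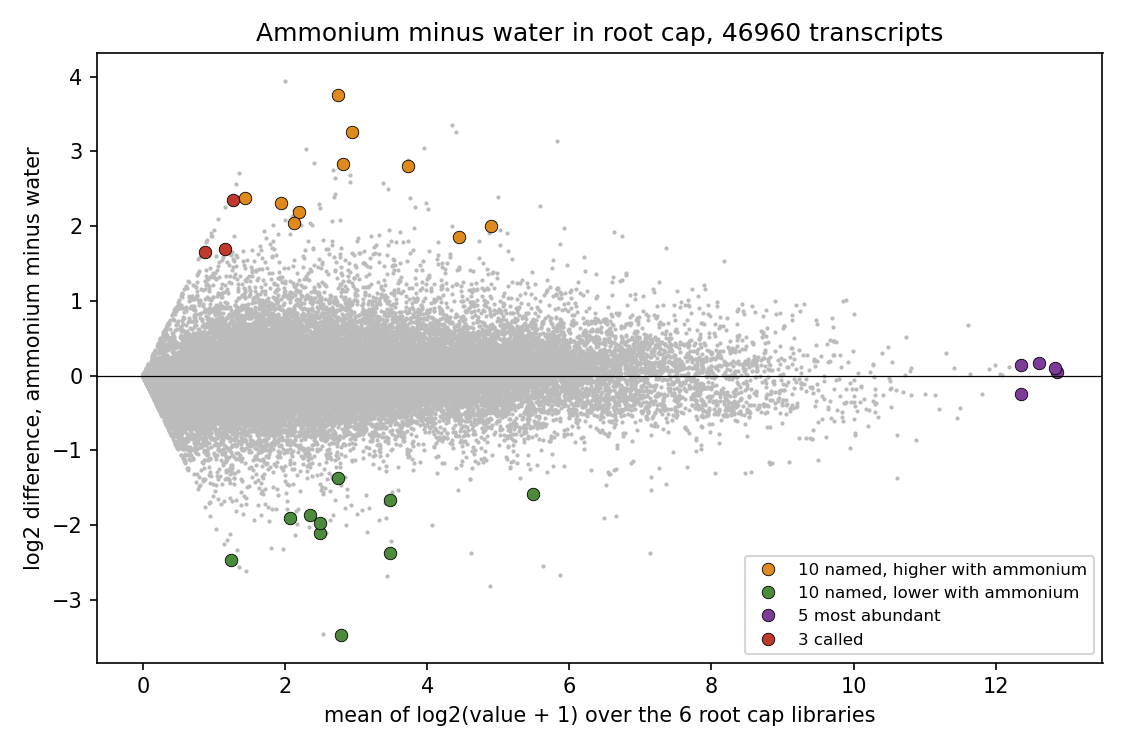
Each grey point is a transcript, with its mean of log2(value + 1) over the 6 root cap libraries on the x axis and its log2 difference, ammonium minus water, on the y axis; coloured points are the transcripts described in the text. The 3 called transcripts lie at low levels, and the 5 most abundant transcripts lie close to a difference of 0.

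The balance of directions changed with level. Among transcripts with a root cap mean of 20 to 100, 10.8% lay apart above water and 3.57% apart below. Among those with a mean under 1, 1.81% lay apart above and 12.6% apart below. At means of 100 and more, 6.38% lay above and 11.2% below. The within-group SD also widened with level, reaching 0.62 at means of 100 and more, against 0.44 at means of 1 to 5. All 3 calls had means of 1 to 5.

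Transcript pp_58601 had the lowest p of all. Its values were 6.69, 5.39 and 2.21 in the ammonium libraries of experiments 1, 3 and 4, against 0, 0.144 and 0.0545 in the water libraries. It was therefore close to the floor in water and clearly present in each ammonium library, with no overlap. The means were 4.76 ± 2.31 with ammonium and 0.0661 ± 0.0726 with water (SD, n = 3 each), a ratio of means of 72.1 and a log2 difference of 2.34 (SE 0.29, 95% interval 1.73 to 2.96, limma adjusted p = 0.0086). The size of this difference depends on the pseudocount of 1, so its interval is no bound on the fold. It was 4.83 with pseudocount 0.1 and 1.07 with pseudocount 4. Within experiments 1, 3 and 4 the log2 difference was 2.94, 2.48 and 1.61.

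Its neighbour in identifier number, pp_58602, followed the same pattern at lower values. It had 3.39, 2.65 and 1.14 in the ammonium libraries, against 0, 0.0431 and 0.0545 in the water libraries. The log2 difference was 1.65 (SE 0.25, limma adjusted p = 0.0351). Neighbouring identifiers can share sequence, and reads of near-identical transcripts can be split between them, so these calls may not be separate events. The other listed transcripts within 10 identifier numbers of pp_58601 did not follow: of 12 neighbours, 1 lay apart above water, which was pp_58602, and their median log2 difference was -0.12.

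The call outside that pair was pp_119401, with 5.55, 1.71 and 2.58 in the ammonium libraries against 0.179, 0.216 and 0.305 in the water libraries. Every ammonium value exceeded every water value, and ammonium 1 stood highest. The log2 difference was 1.70 (SE 0.25, limma adjusted p = 0.0341). This SE pools the spread of all 8 groups, and pp_119401 was near 0 with little spread in meristem and vessels. In the limma fit of the 6 root cap libraries alone its SE was 0.33 (adjusted p = 0.767). Close in number, pp_119398 had 5.21, 2.16 and 3.17 with ammonium against 1.54, 0.302 and 0.654 with water, also without overlap, but did not pass the threshold (log2 difference 1.30, limma adjusted p = 0.261). The adjacent transcript pp_119402 averaged 0.0895 ± 0.0648 with ammonium and 0.197 ± 0.0848 with water (SD, n = 3 each).

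These calls rest on few libraries. Leaving out ammonium 1, water 1 or water 3 ended all 3 calls, with adjusted p for pp_58601 of 0.0653, 0.105 and 0.0605. For pp_58602 the call also ended without ammonium 3 (adjusted p = 0.101) or water 4 (0.0714), and for pp_119401 without water 4 (0.0521). Over all alternatives the adjusted p ranged from 1.2835e-12 to 0.993 for pp_58601, from 4.2911e-11 to 0.993 for pp_58602 and from 0.00248 to 1 for pp_119401. A limma fit of the 6 root cap libraries alone called 0 transcripts, with 2935 at an unadjusted p under 0.05, and edgeR's quasi-likelihood test, run on recovered reads, found 0 as well, with 1999 at an unadjusted p under 0.05.

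The called transcripts had different ranges over the root tip. With ammonium, pp_58601 had 1.87, 4.59 and 2.54 in meristem, 1.52, 1.43 and 2.14 in developing vessels, and 2.05, 0.641 and 2.26 in developing cortex. With water it had 0, 0 and 0.0229 in meristem, 0.061, 0.0739 and 0 in vessels, and 0.215, 0.139 and 0.138 in cortex. In each of these tissues, too, the 3 ammonium values lay above the 3 water values. Averaged over the 3 tissues without root cap, its log2 difference was 1.47 (SE 0.15, unadjusted p = 3.3867e-05, limma adjusted p = 0.647 on 6 set means), the second-lowest p of that comparison. Transcript pp_58602 had an averaged difference of 0.98 there (limma adjusted p = 0.812). Transcript pp_119401 was near 0 in meristem, with 0.0248, 0 and 0.0127 with ammonium against 0, 0 and 0 with water. In cortex it had 0.228, 1.00 and 0.184 with ammonium against 0.086, 0.0278 and 0.0554 with water, without overlap. Its log2 difference there was 0.44 (limma adjusted p = 0.561), a scale that understates changes at such low values. Averaged over the 3 tissues the difference of pp_119401 was 0.14 (limma adjusted p = 0.876).

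**Figure D2:**
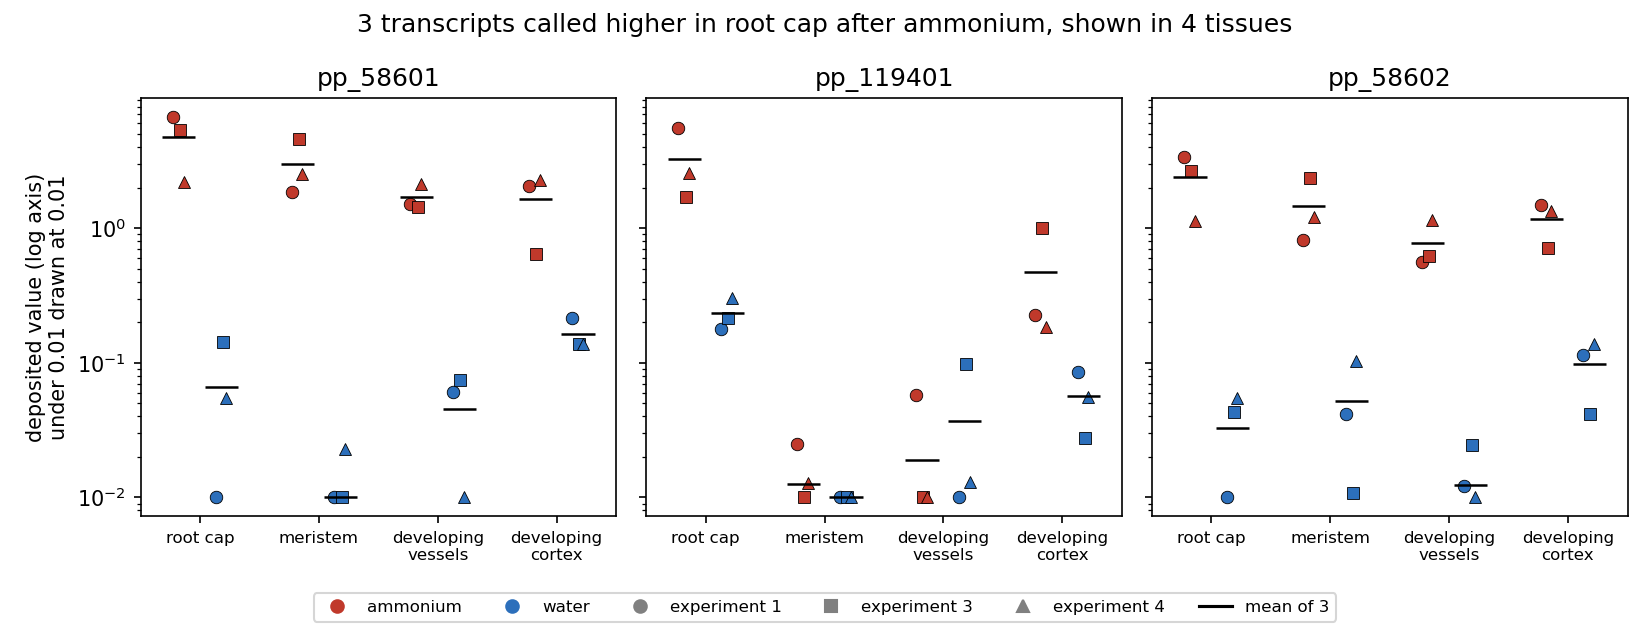
Deposited values (log axis, values under 0.01 drawn at 0.01) of the 3 called transcripts in 4 tissues, ammonium libraries in red and water libraries in blue, marker shape giving the experiment and lines the means of 3. The ammonium values of pp_58601 and pp_58602 lie above the water values in each tissue, and pp_119401 is near 0 in meristem and vessels under both treatments.

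No transcript was shown to respond differently in the root cap than elsewhere. The ammonium effect in root cap minus its mean in the 3 other tissues, tested with limma on 6 set differences, passed the threshold for 0 of 46960 transcripts, with 673 at an unadjusted p under 0.05. For pp_119401 that difference of effects was 1.55 (SE 0.41, unadjusted p = 0.00537) and for pp_58601 it was 0.87 (SE 0.40, unadjusted p = 0.0604), each with an adjusted p of 1.00. With 1 set left out, the difference of effects again passed for 0. Its count at an unadjusted p under 0.05 (limma) then ran from 499 to 2654, the highest without the ammonium set of experiment 3. The effect averaged over the 3 other tissues likewise passed for 0, with 2664 at an unadjusted p under 0.05.

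Just outside the threshold stood pp_84863, pp_78580 and pp_218449, each with a limma adjusted p of 0.0957; they were named after their values were seen. For pp_84863 the values were 4.66, 4.32 and 1.35 with ammonium against 0.0513, 0.388 and 0.676 with water (log2 difference 1.62). In pp_78580 they were 2.87, 3.08 and 1.92 with ammonium against 0.525, 0.532 and 0.229 with water (log2 difference 1.34). Transcript pp_218449 had 4.11, 3.57 and 2.48 with ammonium against 0.0641, 0.474 and 0.915 with water (log2 difference 1.59). All were higher in the 3 ammonium libraries without overlap, and all averaged more in root cap than in the 3 other tissues. Of these, pp_84863 was also called higher in the cortex (log2 difference 1.34, limma adjusted p = 0.040), where 0.268% of transcripts were called.

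The largest positive differences were not called. They were the 10 largest log2 differences among transcripts whose groups did not overlap, with an unadjusted p under 0.01 and a mean of at least 5 in the ammonium group, counting the largest of each run of consecutive identifiers. These terms held for 55 transcripts in 47 runs. The largest was pp_230441, with 56.3, 17.0 and 13.3 in the ammonium libraries against 0.795, 0.762 and 0.915 in the water libraries. Its water values were almost equal and its ammonium values spread over 4-fold. The ratio of means was 35.1 and the log2 difference 3.75 (SE 0.82, limma adjusted p = 0.617). Its level was highest in vessels, with 74.0, 58.8 and 34.3 with ammonium against 12.2, 16.6 and 30.3 with water.

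A cluster of identifiers between pp_179051 and pp_179057 shared a pattern. Transcript pp_179057 had 21.0, 17.5 and 15.3 with ammonium, against 1.19, 1.50 and 2.40 with water, with the smallest SD relative to the mean among the ammonium groups of these 10 (log2 difference 2.82, SE 0.55, limma adjusted p = 0.274). For pp_179051 the values were 41.4, 12.1 and 23.3 with ammonium against 1.12, 1.15 and 2.41 with water (log2 difference 3.26, SE 0.80, limma adjusted p = 0.942). Between them pp_179053 averaged 15.4 with ammonium and 1.63 with water, and pp_179056 14.4 with ammonium and 1.85 with water. The cluster had an edge on each side: pp_179050 averaged 9.53 with ammonium and 12.9 with water, pp_179058 averaged 8.05 with ammonium and 8.21 with water, and pp_179055 inside the cluster averaged 2.59 with ammonium and 2.38 with water. In the cortex pp_179057 was called higher (log2 difference 2.83, limma adjusted p = 0.035), with 21.3, 10.03 and 13.9 with ammonium against 4.24, 0.195 and 0.609 with water.

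Transcript pp_189071 had 49.6, 34.3 and 23.4 with ammonium against 6.15, 2.85 and 3.69 with water (log2 difference 2.80, SE 0.62, limma adjusted p = 0.655). It was low in meristem and vessels, where no library passed 3.46, so its ammonium values were those of root cap and cortex. Transcript pp_128442 had 7.70, 8.01 and 2.00 with ammonium against 0.167, 0.0144 and 0.425 with water, and its ammonium values exceeded its water values in each of the other tissues too. The remaining 5, with log2 differences of 1.85 to 2.31, were pp_184578, pp_246425, pp_219733, pp_209097 and pp_57785. Of these, pp_184578 and pp_246425 were highest in root cap and were uneven between ammonium libraries, at 17.8, 1.86 and 10.6 and at 14.8, 4.58 and 9.56. The most abundant, pp_209097, had 67.2, 64.8 and 45.8 with ammonium against 7.57, 27.2 and 12.5 with water. Around it 10 of 11 listed neighbours were higher with ammonium and 7 lay apart; their median log2 difference was 0.63.

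The largest negative differences, chosen by the mirrored rule from 35 transcripts in 32 runs, were also not called. The largest was pp_78755, with 5.18, 0.0815 and 0.319 with ammonium against 42.6, 27.9 and 8.56 with water (log2 difference -3.47, SE 1.09, limma adjusted p = 1.00). It is a vessel transcript by level, with 1361, 1040 and 608 in vessels with ammonium against 1483, 1133 and 1095 there with water. The tightest was pp_170422, with 2.73, 2.66 and 4.25 with ammonium against 11.2, 7.81 and 10.7 with water (log2 difference -1.37, SE 0.26, limma adjusted p = 0.235). In the cortex it was called lower (log2 difference -1.32, limma adjusted p = 0.0353), while in meristem and vessels its log2 differences were -0.30 and 0.03.

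A run of lower values lay next to pp_94634, which had 7.99, 1.67 and 3.96 with ammonium against 34.9, 28.0 and 14.8 with water. Of 16 listed neighbours, 13 were lower with ammonium and 10 lay apart below water, with a median log2 difference of -1.26. The neighbour pp_94635 averaged 4.95 with ammonium and 27.6 with water but was not apart. From pp_94636 on, the differences lay close to 0 (0.07 for pp_94636, -0.02 for pp_94638).

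The pair pp_177820 and pp_177817 had similar values in every root cap and cortex library and may share reads. For pp_177820 these were 4.06, 1.26 and 0.753 with ammonium against 7.20, 21.3 and 7.69 with water. Their levels stayed under 1 in meristem and vessels. In the cortex their mean values ran the other way, with log2 differences of 0.64 and 0.54. The difference between the root cap effect and the other tissues was -2.41 for pp_177820 (SE 0.52, unadjusted p = 0.00167, limma adjusted p = 1.00). Similarly, pp_120718 was listed at 0 in all 12 meristem and vessel libraries and had 1.33, 0.815 and 1.43 with ammonium against 3.17, 16.9 and 6.20 with water in root cap. The second largest was pp_92810, with 0, 0.0136 and 0.0128 with ammonium, all at or under the floor, against 11.2, 12.1 and 0.0872 with water. Its fitted log2 difference of -2.47 (SE 0.61, limma adjusted p = 0.942) depends on the pseudocount and is no bound on the fold. The others were pp_212153, pp_112427 and pp_120430, of which pp_120430 was the most abundant, with 22.1, 45.1 and 15.2 with ammonium against 83.1, 74.6 and 72.9 with water.

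**Figure D3:**
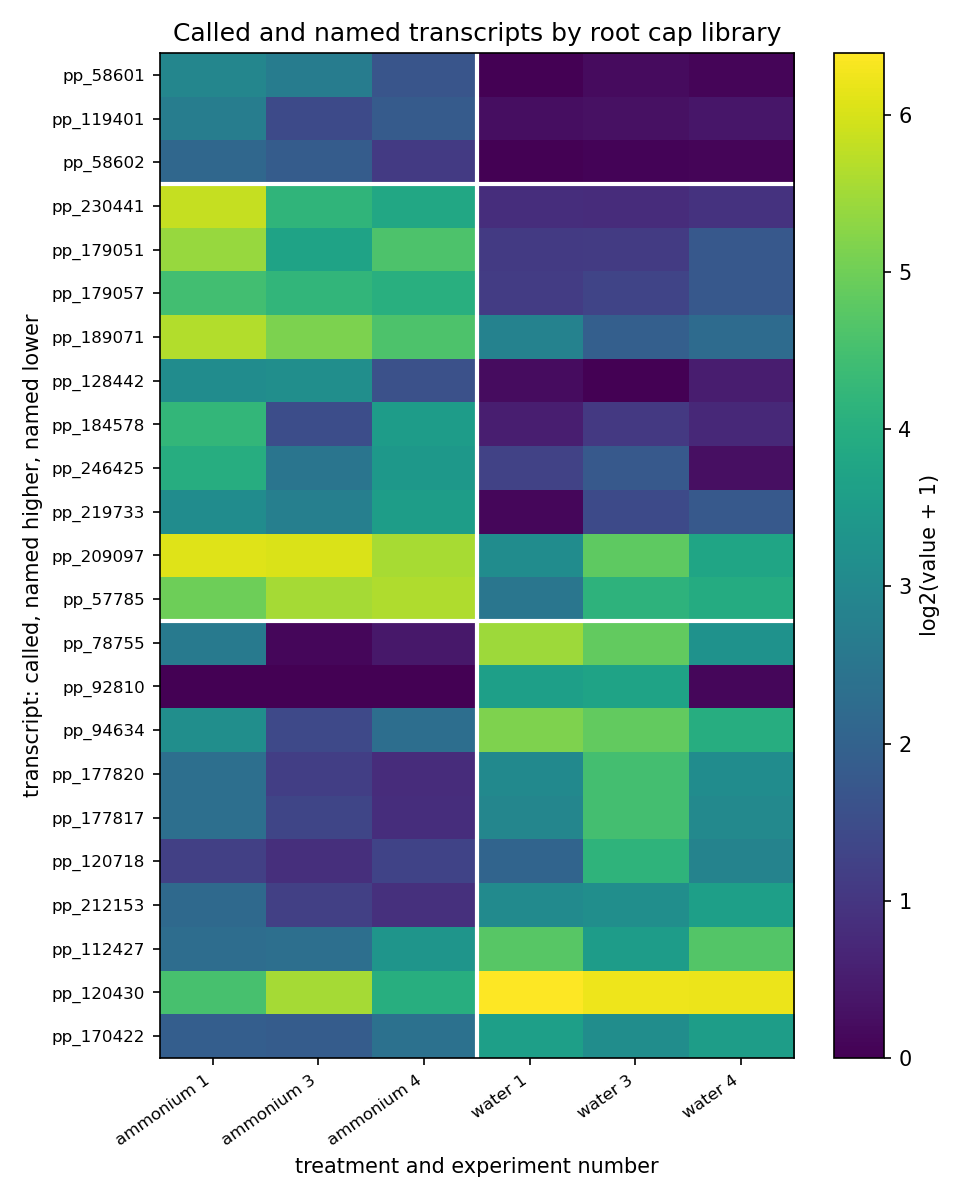
Colour gives log2(value + 1) of 23 transcripts (rows) in the 6 root cap libraries (columns), with white lines between ammonium and water and between the called transcripts, the 10 largest positive and the 10 largest negative differences that met the naming rule. The rows were chosen for separating the groups; the uneven colour within a group shows how far libraries of 1 treatment differed.

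Transcripts that lay apart by at least 1 on the log2 scale in root cap leaned the same way in tissues that share no library with it, although they may come from the same seedlings. There were 296 such transcripts higher with ammonium (0.63% of those tested) and 170 lower (0.362%). Of the 296, 96.3% had a higher mean with ammonium in meristem, 83.8% in vessels and 94.9% in cortex, against 51.5%, 48.0% and 46.9% of all transcripts tested. All 3 tissues were higher for 78.7% of them, against 19.9% of all. The meristem shares, and those over all 3 tissues, include meristem ammonium libraries that resembled other tissues, as given below. Within experiment 1, which uses none of these, 41.9% were higher in meristem, against 46.5% of all. The meristem shares therefore cannot show that meristem itself leaned the same way. In the cortex 19 of the 296 were called higher, where 0.192% of all transcripts were. None of the 296 was called higher in meristem, where 0 transcripts were called with 5626 at an unadjusted p under 0.05, or in vessels, where 1 was (0.00213%). Of the 170 lower, 88.2% were lower in meristem, 64.7% in vessels and 73.5% in cortex, against 48.4%, 51.7% and 53.1% of all, and 1 was called lower in the cortex, where 0.0767% of all transcripts were.

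This shared direction was uneven between experiments. Within experiment 1, 41.9% of the 296 were higher in meristem and 62.8% in cortex, against 46.5% and 51.8% of all transcripts tested. Within experiment 3 the shares were 95.6% and 85.8%, against 49.5% and 44.8%, and within experiment 4 they were 84.8% and 97.3%, against 49.7% and 47.3%. In vessels the shares in experiments 1, 3 and 4 were 65.9%, 80.4% and 68.6%, against 55.1%, 49.0% and 45.2% of all. For the 170 lower transcripts, experiment 1 gave 50.6% lower in meristem and 29.4% lower in cortex, against 52.6% and 47.8% of all. Experiment 3 gave 84.1% and 81.8%, against 49.9% and 54.7%, and experiment 4 gave 83.5% and 88.2%, against 49.1% and 52.4%. In vessels the shares lower in experiments 1, 3 and 4 were 54.7%, 68.2% and 50.6%, against 44.2%, 49.9% and 54.0% of all. Some meristem libraries went against their label: ammonium 3 correlated at a median r of 0.925 with the cortex water libraries against 0.818 with the meristem water libraries, and ammonium 4 at 0.879 with root cap against 0.863 with meristem. The meristem shares of experiment 1 do not use these libraries. Those of experiments 3 and 4, and the meristem shares over all experiments, do. How far the tissue make-up of these libraries accounts for those shares was not tested. A root cap fit without these 2 libraries again called 3 transcripts. It kept pp_58601 and pp_58602 but not pp_119401 (limma adjusted p = 0.0572). The tests that combine the other tissues were not run without both of these libraries.

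The 2 sets had their highest levels in different tissues. Of the 296 higher transcripts, 134 had their highest mean in root cap, 133 in cortex, 13 in meristem and 16 in vessels. Of the 170 lower transcripts, 29 were highest in root cap, 23 in cortex, 56 in meristem and 62 in vessels. Over all transcripts tested these counts were 6973 for root cap, 12094 for cortex, 15336 for meristem and 12557 for vessels. The means behind these counts covered both treatments, and so included the root cap values by which the sets were chosen. That choice favours root cap among the higher transcripts and counts against it among the lower. The counts therefore cannot show in which tissue either set is usually highest.

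Lists of transcripts made from the other tissues varied between the root cap libraries. In bulk samples such as these, fewer cells of a type and less RNA per cell cannot be told apart. A list of 45 meristem transcripts, made from the libraries without root cap, averaged 3.20, 1.96 and 4.07 on the log2(value + 1) scale in the ammonium libraries of experiments 1, 3 and 4, against 4.52, 4.37 and 2.91 in the water libraries. Over the meristem libraries the list averaged 4.42, below water 1, so it did not mark meristem off from root cap. Its members were chosen above vessels and cortex, not above root cap. The choice also used meristem ammonium 3 and 4, which went against their label. The ammonium and water groups of root cap overlapped, with water 4 below ammonium 1 and 4. The summed values ran from 608 to 1749 with ammonium and from 1139 to 2396 with water. All 45 had a lower mean with ammonium (median log2 difference -0.90), 6 lay apart below water and 0 had an unadjusted p under 0.05. Over all 46960 transcripts tested, 24155 were lower, the median was -0.01, 6.65% lay apart below water and 3.41% had an unadjusted p under 0.05.

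The list of 200 vessel transcripts was low, at 0.39, 0.20 and 0.38 with ammonium against 1.00, 0.78 and 0.36 with water, while it averaged 5.99 in vessel libraries. Of its members 187 were lower and 13 higher with ammonium (median log2 difference -0.23), and 38 lay apart below water, against 6.65% of all transcripts tested and 12.6% of those with a root cap mean under 1. Their summed value was 41.0 to 126 with ammonium and 107 to 555 with water, and 6 to 24 members reached a value of 1 with ammonium against 19 to 64 with water. The part of either list in the negative differences above was not tested. The 200 cortex transcripts overlapped between groups, at 6.11, 5.42 and 5.38 with ammonium against 5.04, 5.65 and 5.78 with water, close to their level of 6.45 in cortex libraries.

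The root cap's own transcripts did not differ in a single direction. Lists were made for each experiment from the libraries of the other 2 experiments. The list averaged 5.96 in ammonium 1 against 4.90 in water 1, 3.22 in ammonium 3 against 5.23 in water 3, and 5.74 in ammonium 4 against 4.80 in water 4. It was thus higher with ammonium in experiments 1 and 4 and lower in experiment 3, by a wider margin. Ammonium 3 was also the lowest library for the meristem list and the vessel list.

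**Figure D4:**
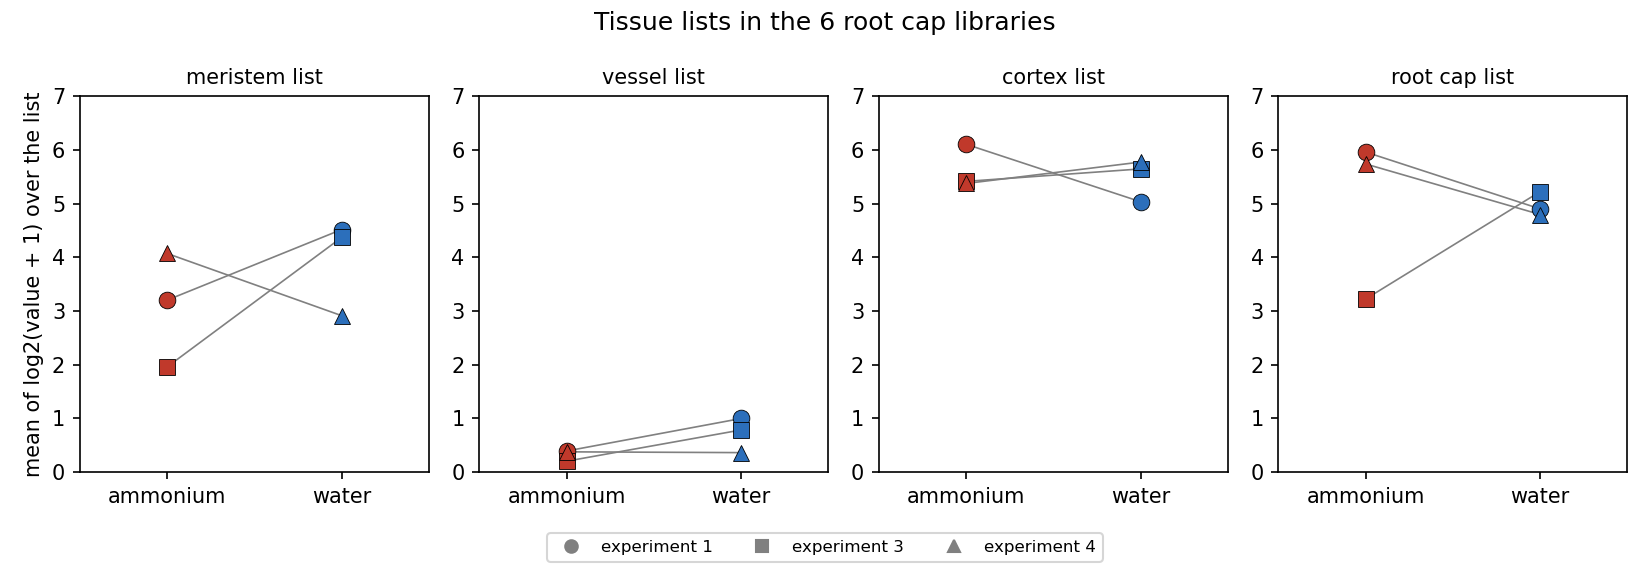
Mean of log2(value + 1) over the tissue lists in the 6 root cap libraries, ammonium in red and water in blue, marker shape and grey lines giving the experiment. The root cap list differs between experiments because each was made without the experiment it is shown for. The meristem, cortex and root cap lists overlap between treatments, and the vessel list lies under 1 in every library.

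The most abundant transcripts gave no call and spread widely within each treatment. The leading one, pp_188972, had 9241, 2976 and 15582 with ammonium against 7081, 15802 and 3517 with water. Its neighbours pp_188978 and pp_188976 ordered the libraries in much the same way, with ammonium 3 lowest in the ammonium group and water 4 lowest in the water group. In pp_216512 the values were 11544, 6395 and 5875 with ammonium against 4869, 9401 and 7739 with water, and in pp_153514 they were 10693, 2804 and 3704 with ammonium against 6150, 8150 and 3706 with water. Their log2 differences ran from -0.25 to 0.17, with SEs of 1.10 to 1.88, so changes of several-fold in these transcripts were not detectable with 3 libraries per group.

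Some transcripts were present in a single library and at the floor in the rest of the root cap. Of the 47118 listed transcripts, 481 had at most 3 reads in all 3 water libraries, of which 2 reached a value of 1 in all 3 ammonium libraries. At most 3 reads in all 3 ammonium libraries were found for 902, of which 0 reached 1 in all 3 water libraries. Both counts include 330 transcripts with at most 3 reads in all 6 root cap libraries. In each experiment the water library held more recovered reads than the ammonium library, so the counts of the 2 arms are not a like comparison. The highest on the ammonium side was pp_64760, with 52.5 in ammonium 1 and 0 in the 5 other root cap libraries. Its neighbour pp_64761 had 40.3 in ammonium 1 and 0 elsewhere in root cap, and pp_60493 had 46.3 in ammonium 4; neither passed the filter on low values. On the water side, pp_57933 had 107 in water 4 and at most 0.0256 in the others, and pp_107388 had 37.6 in water 4 and 0 in the others. The third was pp_92810, already given among the 10 largest negative differences.

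The single-library transcripts recurred mostly in other tissues of the same treatment and experiment. Over the 24 libraries, the second-highest value of every listed transcript was at least 1.646. A transcript seen in a single root cap library must therefore recur in some library of another tissue. Recurrence itself was thus fixed by what the table lists, but not the treatment and experiment in which it occurred. Transcript pp_107388 had 55.2 in meristem, 52.0 in vessels and 47.5 in cortex of water 4 and was listed at 0 in all 20 libraries of other treatments and experiments. Transcript pp_57933 had 77.4, 131 and 133 in those libraries of water 4. In experiment 1 with ammonium, pp_64760 had 8.06 in meristem and 1.19 in vessels and was listed at 0 in cortex. Between 5 and 14 transcripts per library had a value of at least 1 there and at most 3 reads in the 5 other root cap libraries. For water 4 these were 12 transcripts, and 91.7% of their values in the other tissues of water 4 were at least 1, against 15.6% in the 15 libraries of the other tissues from other treatments and experiments. For ammonium 3 the shares were 83.3% and 3.81% over 14 transcripts. For water 1 they were 33.3% and 33.3% over 5 transcripts.

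**Figure D5:**
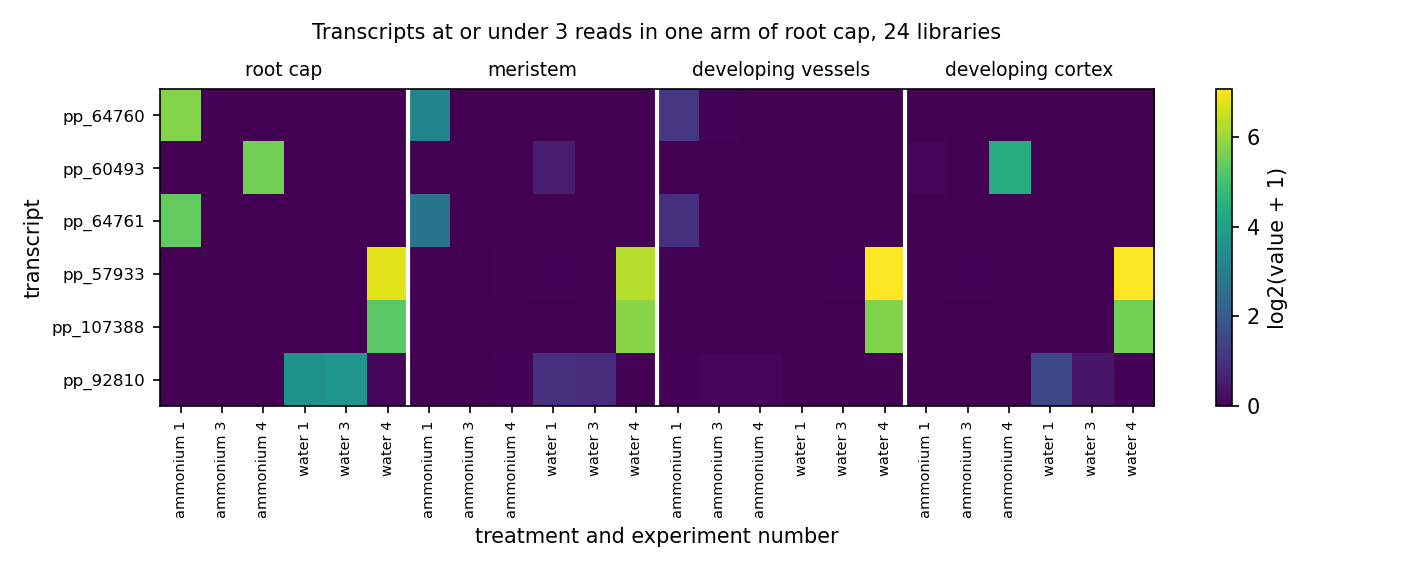
Colour gives log2(value + 1) of the 6 transcripts (rows) with the highest values among those at or under 3 reads in all ammonium or all water libraries of the root cap, across 24 libraries grouped by tissue. Most rows are high in a single treatment and experiment, and pp_57933 and pp_107388 are high in water 4 in all 4 tissues.

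DESeq2 on recovered reads called 190 root cap transcripts (0.405% of those tested), 48 higher (0.102%) and 142 lower (0.302%) with ammonium. In 159 of them, 83.7%, a single library held over 50% of the summed root cap value, against 5.39% of all transcripts tested. Groups did not overlap for 111 of the 190, against 12.7% of all transcripts tested. They included pp_58601 and pp_58602, 4 of the 10 largest positive and 2 of the 10 largest negative differences named above.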

How the data were processed

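Transcript levels were measured in 24 libraries as paired reads of 150 bp, 3 libraries for each of 4 tissues and 2 treatments. The tools bcl2fastq and BWA are named, without versions, per the submitters' processing notes. How reads were counted, scaled and filtered, and against which transcripts, is not given in the sources used here. From its values, the deposited signal is a read count over a scaled library total: 100% of values in each library were whole multiples of 1 read within 0.01 reads, and columns sum to between 793680 and 1210367, so they are not plain CPM. Reads were amplified and carry no molecular identifiers, so floors cover counting error only.

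The planned test assumed CPM; the same log-scale test was used on the signal. Transcripts reaching 1 in fewer than 3 libraries (158) were removed and log2(value + 1) was tested with limma 3.58.1 (R 4.3.3), which understates changes of low transcripts. Set differences and set means combine the libraries of 1 treatment and experiment. Recovered reads were tested with edgeR 4.0.16 and DESeq2 1.42.0. Tissue lists hold at most 200 transcripts higher in a tissue by at least 2 on the log2 scale (limma adjusted p under 0.05). For the meristem, vessel and cortex lists these tissues were compared with each other, not with root cap. Transcripts named were all calls and their neighbours in number, the 10 largest positive and negative differences, the 5 most abundant, and 3 for each arm at the floor. Procedures were tested on simulated reads. The comparison, lists and rules were chosen with earlier results of these data known.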

Additional observations from a re-analysis of the deposited data

How the results depend on the processing

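The count of 3 root cap calls was 6 with pseudocount 4, 9 with library weights, 190 with DESeq2 (48 higher and 142 lower), 0 with edgeR's quasi-likelihood test and 0 in the fit of the 6 root cap libraries; leaving out 1 root cap library gave 0 to 8. Apart from DESeq2 and the fit without water 4 (1 higher and 3 lower), each fit with calls called rises only. The 5957 transcripts with libraries apart became 8363 to 12779 when 1 library was left out, since fewer libraries had to lie apart. The root cap effect minus that of the other tissues, and the mean effect over those tissues, stayed at 0 calls under each alternative run, including 3 fits, chosen after seeing the data, of root cap against each tissue (317 to 1046 at an unadjusted p under 0.05). Root cap libraries of the same experiment number were not more alike than others. Deviations of same-numbered libraries correlated at -0.11, -0.34 and -0.33, and no library correlated best with its own number. With 3 libraries per group this cannot settle whether the experiments were paired. Values given within an experiment follow the numbers of the labels. With the replicate block the count was 1 over 24 libraries (pp_58601) and 0 over the 6 root cap libraries. Of 18 alternatives each, the call was kept in 12 for pp_58601, 8 for pp_58602 and 6 for pp_119401. Of 535 alternative values over 30 named transcripts, 0 were counted as reversed, and 17 gained a call. Where the groups did not overlap, leaving out a library or changing the pseudocount could not reverse the sign. The most abundant transcript, pp_188972, overlapped between groups. With 1 root cap library left out, its log2 difference ran from -0.49 to 0.71.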
